A study of Mus musculus with 20 samples.

Results

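The immediate response to erythropoietin (Epo) was taken from the arrays of colony-forming unit erythroid (CFU-E) cells at 1, 2 and 3 h. Each array with Epo was set against the array without Epo of the same hour. By this rule 6 of the 20 arrays of the study were members, 3 with Epo and 3 without, 1 array per treatment and hour. CFU-E cells are the red cell precursors that need Epo to survive and divide. They came from livers of BALB/c mouse embryos at stage E13.5, in both series alike. Red cells were lysed and cells carrying Ter119 or markers of other blood lineages were removed with magnetic beads, so the cells were enriched by what they lacked. The Epo series received 0.5 U/ml Epo and the other series none. The labels differ on what came before: the sample protocol gives 12 to 14 h of culture in serum with Epo, and the design text gives 1 h without serum after the sort. All groups therefore may have met Epo before the time course. The arrays at 0 h, 1 in each series, served as the background difference, since the labels place both at the start of the time course. The question asked of the comparison was which transcripts differ within the first 3 h of Epo.

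Epo binds its receptor EpoR on erythroid precursors and activates the kinase JAK2, which phosphorylates STAT5. STAT5 enters the nucleus and switches on genes that include its own inhibitors, CIS (Cish) and the SOCS proteins, so that the pathway limits itself. EpoR also feeds the RAS-ERK cascade, whose immediate early genes respond within the hour, and PI3K-AKT, which holds the FOXO transcription factors out of the nucleus.

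All values are levels on a log2 scale, so a difference of 1 is 2-fold. The difference is always Epo minus no Epo. A gene was called at an adjusted p under 0.05 in a limma fit with the hour as a block, over 18193 genes. A difference is followed by its standard error from the limma fit. This error is moderated, that is drawn toward the scatter usual for genes of similar level. It can therefore be smaller or larger than the spread of a gene's own 3 pairs. The 3 pairs are of different hours, so the error behind these p-values holds any change of the difference with the hour. It also holds the scatter between arrays, which may be technical, since nothing says that hours came from separate cultures. An exact permutation test of 3 against 3 cannot go below 0.1.

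Both series carried erythroid transcripts: Gata1, the erythroid master regulator, lay between 9.81 and 10.29 on the Epo arrays of 1 to 3 h and between 10.53 and 10.74 on the others. The series already differed at 0 h. There, 436 genes were at least 2-fold higher and 115 at least 2-fold lower in the Epo series, 3.03% of all genes, with 1 array a side and no test. The largest differences at 0 h were those of Fabp2 (3.33), Leap2 (3.25), Mgst2 (3.21) and Tfpi2 (3.20) upward, and of Mpo (-2.26), Prtn3 (-2.13), Ptprc (-2.0) and Sp3 (-1.97) downward. Fabp2 and Leap2 are known from liver and gut, and Mpo and Prtn3 are granule proteins of early myeloid cells. Of 11 hepatocyte markers, 7 were called higher at 1 to 3 h and none lower, against 8.08% and 8.8% of all genes. The median difference of these markers was 0.88 after 1.4 at 0 h. Their summed level (log2 of the sum of unlogged values) was 15.08 with Epo and 14.01 without at 0 h, and 14.11 to 14.49 against 13.34 to 13.63 at 1 to 3 h. Of 11 granulocyte markers, 3 were called lower, against 8.8% of all genes. The summed level of these markers was 9.43 against 11.02 at 0 h and 8.59 to 9.01 against 9.15 to 10.26 afterwards. None of 12 macrophage, 8 megakaryocyte, 7 mast cell and basophil, 10 lymphoid or 11 endothelial and stromal markers was called, with summed levels of at most 8.29 on all arrays of 0 to 3 h. The spiked-in control lys, carried through labelling, read 7.41 to 8.18 on the Epo arrays of 0 to 3 h and 6.57 to 6.96 on the others. Another such control, phe, read 7.65 to 8.41 against 7.43 to 7.73, so its ranges overlapped. The 3′ minus 5′ signal of Actb was 0.58 to 1.00 against 0.39 to 0.58. Each of these was highest on the Epo array of 2 h. The part of these differences in the results was not tested. On arrays of cell populations, fewer cells of a type and less RNA per cell cannot be told apart.

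At 1 to 3 h, 1470 genes (8.08%) were called higher with Epo and 1601 (8.8%) lower. Of these, 419 were at least 2-fold higher and 264 at least 2-fold lower. The 3 arrays with Epo and the 3 without did not overlap for 5993 genes (32.9%). Of the 3071 called genes, 2855 (93%) differed in the same direction at 0 h, and 406 did so by at least 2-fold. Higher and lower genes were unlike in this. Of the 419 genes at least 2-fold higher, 213 were already at least 2-fold higher at 0 h and 29 were at least 2-fold higher beyond the 0 h difference. Of the 264 at least 2-fold lower, 34 were so at 0 h and 101 were at least 2-fold lower beyond it. The pair of 2 h weighed most in these counts. Without it, 444 genes were called higher and 191 lower, and 634 of these were among the 3071.

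**Figure D1:**
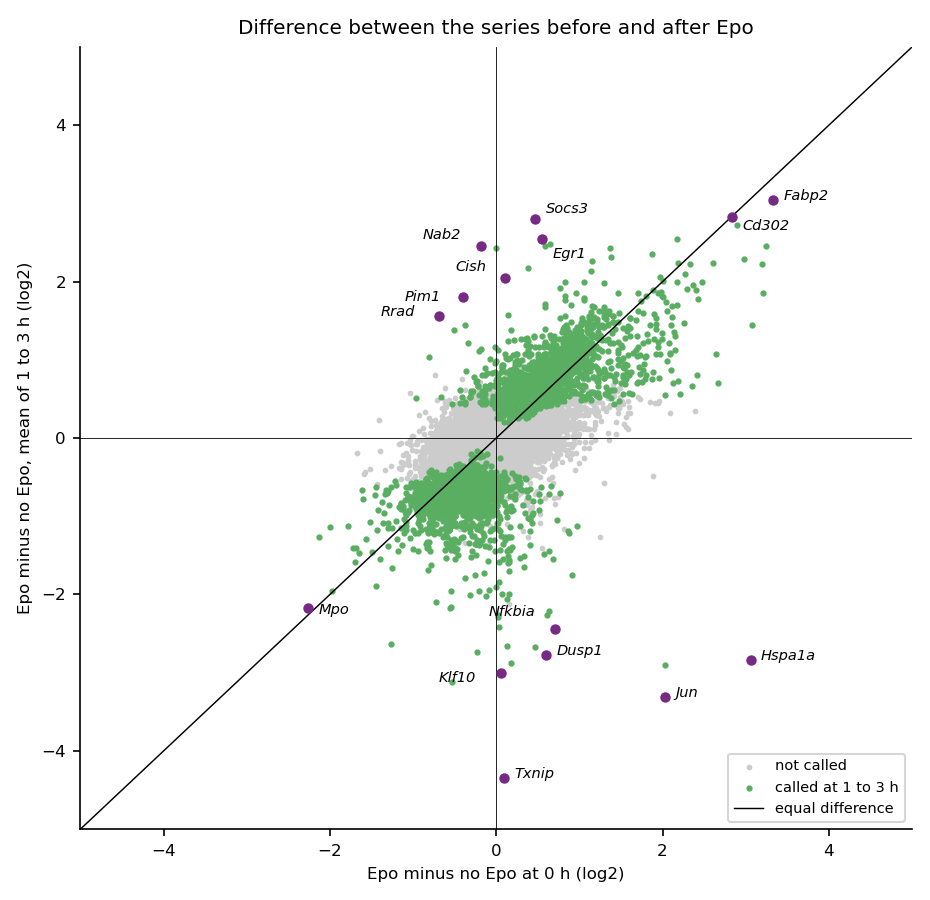
Difference between the series at 0 h (x axis, Epo minus no Epo, log2) against the mean difference at 1 to 3 h (y axis, log2), 1 point per gene; green points were called at 1 to 3 h, purple points are named. Most called genes lie near the line of equal difference, as Fabp2 and Mpo do, while Socs3, Cish, Pim1, Nab2 and Rrad lie above it and Txnip, Klf10, Nfkbia, Dusp1, Jun and Hspa1a far below it.

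The genes that stood out against their own 0 h difference are therefore described first. Against it, limma called 3 genes, 0.0165% of all, each lower with Epo: Hspa1a, Nfkbia and Jun. No gene was called higher, while 302 of the 790 genes at an unadjusted p under 0.05 were higher. The 790 were 4.34% of all genes, a share below the threshold itself, so their number is no excess. The fit rests on 1 pair of arrays at 0 h and had 2 residual degrees of freedom. Without the pair of 1 h it called 66 genes higher and 224 lower, without that of 3 h 1 higher and 9 lower, and without that of 2 h none in limma, with 585 at an unadjusted p under 0.05. With no test, 18 genes were at least 2-fold higher and 63 at least 2-fold lower beyond the 0 h difference at each of the 3 hours. The 18 held Socs3, Cish, Pim1, Egr1, Nab2, Rrad and Srxn1, and the 63 held Txnip, Jun, Fos, Ier2, Dusp1, Nfkbia, Tnfaip3, Klf11, Ddit3, Ppp1r15a, Hspa1a, Hspa1b, Phlda1 and Cyp1a1. All 3 hours were set against the same 0 h pair, so they do not repeat that part of the comparison. Fos itself was not called at 1 to 3 h.

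Motifs were looked for in the promoters of 9 of these genes, and 5 that held a match are shown as examples, chosen after the values and matches were seen: 2 feedback genes that were higher with Epo, and 3 genes that were lower. Each runs from 250 bases before to 50 bases after the annotated start, on the gene's strand, from RefSeq on GRCm38.p6. Capitals mark matches, on either strand, to 6 motifs: STAT5 (TTCNNNGAA), FOXO (TGTTTAC), the ATF4 element CARE (TGATGNAA), CRE (TGACGTCA), NF-kB (GGNNTTTCC) and a heat shock element (GAANNTTC). The last pair of motifs was added after the values were seen.
Socs3, chr11:117969317-117969616 (minus strand): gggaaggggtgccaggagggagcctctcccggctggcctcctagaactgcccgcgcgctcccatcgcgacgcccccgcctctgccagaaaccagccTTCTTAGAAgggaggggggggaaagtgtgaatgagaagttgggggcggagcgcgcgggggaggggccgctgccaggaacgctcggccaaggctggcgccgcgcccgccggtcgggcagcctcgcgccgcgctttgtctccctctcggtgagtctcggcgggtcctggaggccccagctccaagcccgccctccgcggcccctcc
Cish, chr9:107296409-107296708 (plus strand): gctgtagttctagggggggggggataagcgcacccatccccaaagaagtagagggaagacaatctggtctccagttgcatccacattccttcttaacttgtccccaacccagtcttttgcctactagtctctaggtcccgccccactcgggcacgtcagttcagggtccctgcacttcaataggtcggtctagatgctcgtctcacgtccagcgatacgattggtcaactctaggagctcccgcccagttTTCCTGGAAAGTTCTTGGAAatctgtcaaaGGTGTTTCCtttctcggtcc
Txnip, chr3:96557707-96558006 (plus strand): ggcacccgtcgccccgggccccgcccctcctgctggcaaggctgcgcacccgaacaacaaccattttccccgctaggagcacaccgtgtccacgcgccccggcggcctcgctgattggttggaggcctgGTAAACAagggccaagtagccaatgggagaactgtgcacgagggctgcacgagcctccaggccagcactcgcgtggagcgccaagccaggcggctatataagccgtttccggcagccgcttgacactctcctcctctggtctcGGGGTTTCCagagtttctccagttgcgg
Nfkbia, chr12:55492598-55492897 (minus strand): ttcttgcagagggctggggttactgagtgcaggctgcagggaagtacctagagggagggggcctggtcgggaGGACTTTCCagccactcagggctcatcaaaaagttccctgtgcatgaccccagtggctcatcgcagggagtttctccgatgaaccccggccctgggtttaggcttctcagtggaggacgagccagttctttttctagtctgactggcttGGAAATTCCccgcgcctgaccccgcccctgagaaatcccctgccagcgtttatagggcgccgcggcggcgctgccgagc
Hspa1a, chr17:34972107-34972406 (minus strand): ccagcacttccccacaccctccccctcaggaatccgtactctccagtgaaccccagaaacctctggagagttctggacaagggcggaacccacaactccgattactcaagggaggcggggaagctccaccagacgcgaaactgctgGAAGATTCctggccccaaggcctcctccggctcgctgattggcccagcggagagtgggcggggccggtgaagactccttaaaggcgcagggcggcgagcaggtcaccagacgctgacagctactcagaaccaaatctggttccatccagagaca
Counted from the start as 0, the Socs3 promoter held 1 STAT5 match at -154. The Cish promoter held STAT5 matches at 0 and 11, with a heat shock match overlapping both, and an NF-kB match at 30. The Txnip promoter held a FOXO match at -121 and an NF-kB match at 22, that of Nfkbia NF-kB matches at -178 and -29, and that of Hspa1a a heat shock match at -104. Among 32851 promoters of this length, 8.3% held the STAT5 letters, 3.65% FOXO, 3.97% CARE, 1.79% CRE, 5.82% NF-kB and 7.86% the heat shock letters. Over the 18109 promoters of genes tested, these shares were 7.21%, 2.98%, 2.73%, 2.49%, 5.97% and 6.33%. In the same order they were 6.28%, 2.33%, 1.86%, 3.02%, 5.12% and 7.44% of 430 promoters of genes called at least 2-fold higher, and 6.12%, 3.67%, 2.45%, 3.06%, 10.4% and 7.65% of 327 of genes called at least 2-fold lower, given as a description with no test. A gene with several annotated starts counts once for each. The Jun promoter held a heat shock match at -128 and that of Dusp1 a CRE match at -143, while none of the 6 motifs was in these windows of Nab2 and Srxn1. A match describes letters, not a site in use.

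Among inhibitors that STAT5 is known to induce, Socs3 and Cish were higher on every Epo array. Socs3, a SOCS protein that blocks receptor-bound JAK kinases, stood at 4.36 at 0 h and at 7.25, 6.78 and 6.58 at 1, 2 and 3 h with Epo, against 3.89 and then 4.18, 4.00 and 4.04 without. The groups did not overlap, and the level was highest at 1 h; the difference was 2.80 ± 0.16 (adjusted p = 0.00011). This probe set carries an x suffix, which marks probes that may bind other genes. The other 2 probe sets gave 1.82 and, for the unsuffixed one, 0.99 (adjusted p = 0.0060). Cish, which masks STAT5 docking sites on the receptor, stood at 6.37 at 0 h and at 9.14, 8.47 and 8.06 with Epo, against 6.26 and then 6.60, 6.81 and 6.12. It too was highest at 1 h, with a difference of 2.05 ± 0.19 (adjusted p = 0.00045). Pim1, a survival kinase and STAT5 target, stood at 7.46 at 0 h and at 8.41, 8.86 and 9.37 with Epo, against 7.86 and then 7.51, 6.86 and 6.86. Its difference widened by the hour and averaged 1.80 ± 0.27 (adjusted p = 0.0028), but was not called without the pair of 2 h (adjusted p = 0.055). Beyond the 0 h difference these 3 genes were higher by 2.33, 1.94 and 2.20, at adjusted p = 0.10, 0.36 and 0.83; Socs3 was higher by 0.60 on its unsuffixed probe set.

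The other SOCS genes did not share this course. Socs2, which targets signalling proteins for degradation, differed by 0.01, 0.54 and 1.42 at 1, 2 and 3 h (0.65 ± 0.25, adjusted p = 0.11), and its level with Epo stayed between 6.53 and 6.81 while that without stood at 6.56, 6.00 and 5.39. It was called without the pair of 1 h (0.98, adjusted p = 0.0011) and after quantile normalization (0.78, adjusted p = 0.049), and gave 0.24 with all probe sets averaged. Socs1 lay between 4.00 and 4.28 on all 6 arrays (0.07 ± 0.13, adjusted p = 0.77). Of 21 STAT5 targets measured, 4 were called higher (Socs3, Cish, Pim1 and Id1) and 3 lower (Gadd45g, Ccnd3 and Tfrc). The shares of all genes were 8.08% and 8.8%. The list's median difference was 0.07 against 0.01 over all genes. Id1, an inhibitor of helix-loop-helix factors, differed by 0.75 ± 0.16 (adjusted p = 0.012) after 0.40 at 0 h, and Tfrc, the transferrin receptor, by -0.47 ± 0.08 (adjusted p = 0.0039; 0.10 with the hour left out of the model) after -0.36, or by -0.71 with all probe sets averaged. Ccnd3 differed by -0.61 on its brightest probe set but by 0.03 when all its probe sets were averaged (adjusted p = 0.91). Id1 and Ccnd3 lost their calls without the pair of 2 h (adjusted p = 0.12 and 0.16). Among 22 genes that restrain JAK2 or STAT5, Socs3 and Cish were the 2 called higher, and 3 were called lower. These counts were near the 8.08% and 8.8% of all genes.

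The receptor chain itself was, where it differed, lower in the Epo series, by about as much as at 0 h. Epor, the receptor, stood at 9.79, 9.66 and 10.13 with Epo and at 10.21, 10.12 and 10.53 without, a difference of -0.43 ± 0.11 (adjusted p = 0.030; 0.12 with the hour left out of the model) after -0.39 at 0 h. Stat5b differed by -0.62 ± 0.16 (adjusted p = 0.032; 0.074 after quantile normalization) after -0.81 at 0 h. Neither was called without the pair of 2 h (adjusted p = 0.22 and 0.28), and Epor was not called without that of 3 h (adjusted p = 0.052). Jak2 (-0.49 ± 0.16, adjusted p = 0.070) and Stat5a (-0.63 ± 0.19, adjusted p = 0.055) missed the threshold; without the pair of 3 h they passed it, at -0.62 (adjusted p = 0.039) and -0.87 (adjusted p = 0.0081). With all probe sets averaged they also passed, at -0.59 (adjusted p = 0.049) and -1.12 (adjusted p = 0.010), and with brighter genes only (adjusted p = 0.048 and 0.042); Stat5a passed with median centring and robust eBayes as well (adjusted p = 0.046 and 0.047). Of 21 pathway components, none was called higher and 6 lower, against 8.08% and 8.8% of all genes. The median difference of the list was -0.35 after -0.50 at 0 h. The member farthest from its 0 h difference in this list was Irs2, an adaptor of PI3K. It stood at 6.38 at 0 h and at 6.62, 6.91 and 6.83 with Epo, against 7.03 and then 6.42, 6.31 and 6.45. Its difference was -0.65 at 0 h and 0.39 ± 0.16 at 1 to 3 h (adjusted p = 0.14). Beyond 0 h Irs2 was 1.04 higher (unadjusted p = 0.011 in limma) and was not called. Pik3r1, the regulatory subunit of PI3K, stood at 6.60, 6.31 and 6.74 with Epo and at 7.12, 8.10 and 8.78 without (-1.45 ± 0.27, adjusted p = 0.0074). At 0 h it already differed by -0.80, and beyond that by -0.65 (unadjusted p = 0.26 in limma). It was not called without the pair of 2 h (adjusted p = 0.11).

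**Figure D2:**
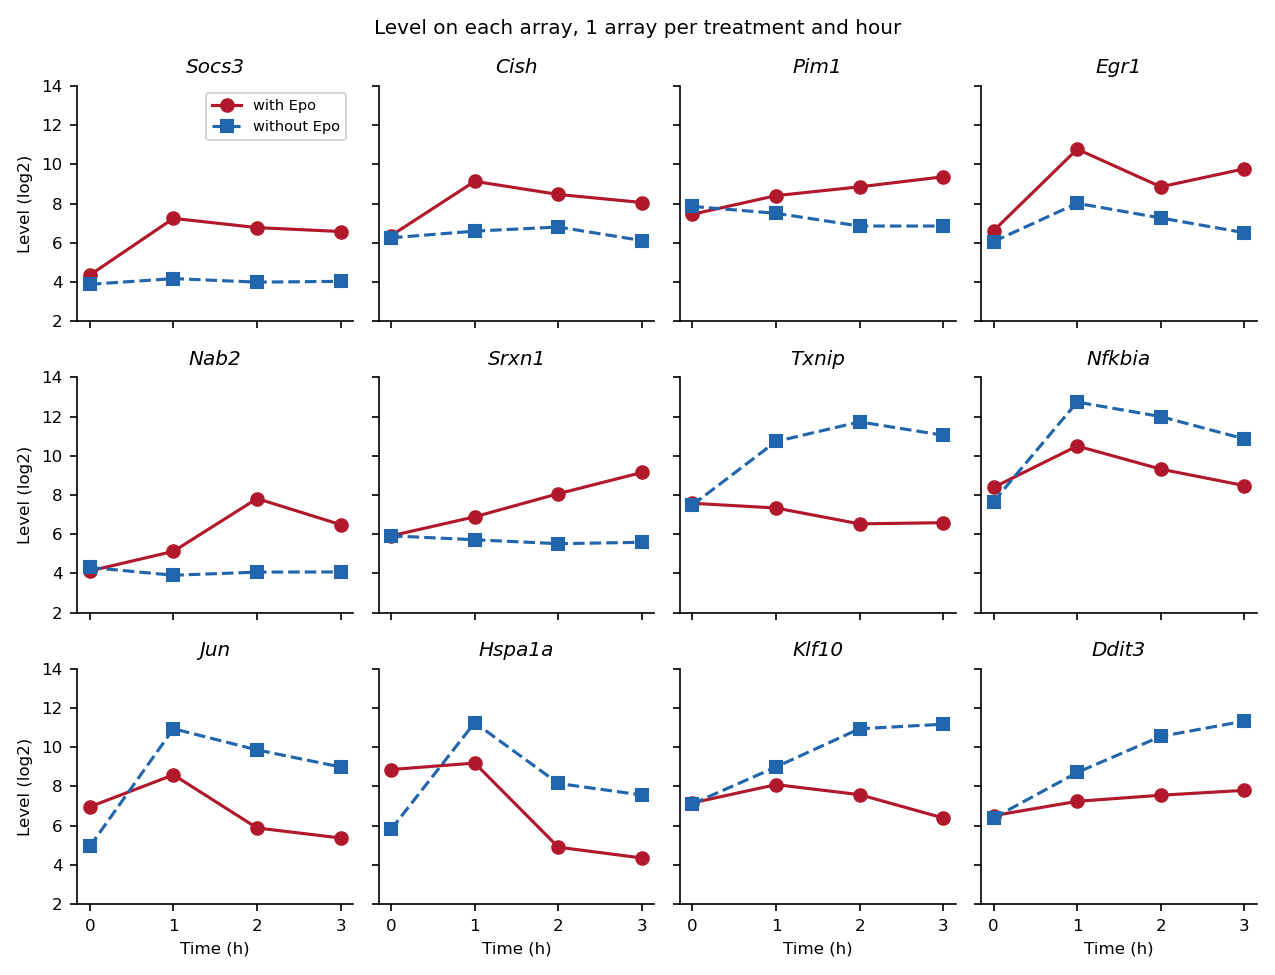
Level (y axis, log2) by time (x axis, hours) for 12 genes, with Epo (red circles) and without (blue squares); each point is 1 array and there are no error bars. In the Epo series Socs3, Cish, Pim1, Egr1, Nab2 and Srxn1 stand above their 0 h level at each later hour, and without Epo Txnip, Nfkbia, Jun, Klf10 and Ddit3 do so by more than with Epo.

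Immediate early genes respond to signals without new protein. Of these and of other early or feedback genes, some called higher are given first. Egr1, a zinc finger factor downstream of ERK, stood at 6.62 at 0 h and at 10.78, 8.86 and 9.78 with Epo, against 6.07 and then 8.02, 7.27 and 6.52. Both series were above their 0 h level, Epo by more, and the difference was 2.54 ± 0.27 (adjusted p = 0.00066). Nab2, the corepressor that EGR1 induces to limit itself, stood at 4.13 at 0 h and at 5.13, 7.82 and 6.49 with Epo, against 4.31 and then 3.91, 4.07 and 4.08. It was highest at 2 h, an hour after Egr1, with a difference of 2.46 ± 0.37 (adjusted p = 0.0030). Rrad, a small GTPase of the RGK family, stood at 2.73 at 0 h and at 5.20, 6.98 and 6.60 with Epo, against 3.42 and then 3.92, 4.93 and 5.26. Its groups overlapped, since both series climbed, but each hour was higher with Epo (1.56 ± 0.19, adjusted p = 0.0010; 0.057 with the hour left out of the model). Spry1, a brake on the ERK cascade, differed by 0.78 ± 0.22 (adjusted p = 0.038), and was not called without the pair of 2 h or of 3 h (adjusted p = 0.24 and 0.14).

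Other immediate early genes were lower with Epo, and their untreated arrays stood far above the 0 h level. Jun, a subunit of AP-1, stood at 4.94 at 0 h and at 10.94, 9.86 and 8.99 without Epo, against 6.96 and then 8.59, 5.88 and 5.37 with it. The difference at 1 to 3 h was -3.31 ± 0.27 (adjusted p = 0.00033), and beyond the 0 h difference -5.34 ± 0.56 (adjusted p = 0.031). The second of these calls was lost with brighter genes only, without the trend, with robust eBayes and with all probe sets averaged (adjusted p = 0.079, 0.087, 0.055 and 0.050). Ier2 stood at 7.58 at 0 h and at 11.64, 12.15 and 11.68 without Epo, against 7.76 and then 9.83, 8.68 and 8.33 (-2.88 ± 0.27, adjusted p = 0.00045). Klf10, a TGF-beta-responsive repressor, stood at 7.11 at 0 h and at 8.99, 10.94 and 11.17 without Epo, against 7.16 and then 8.09, 7.58 and 6.39. Its groups did not overlap (-3.01 ± 0.55, adjusted p = 0.0067), though it was not called without the pair of 2 h (adjusted p = 0.090) or with robust eBayes (adjusted p = 0.19). Its relative Klf11 differed by -2.74 ± 0.21 (adjusted p = 0.00025). The AP-1 members Junb (-2.10 ± 0.28, adjusted p = 0.0017) and Fosb (-1.52 ± 0.27, adjusted p = 0.0058), both chosen after their values were seen, were lower too. Fos itself missed the threshold (-0.49 ± 0.16, adjusted p = 0.060), and passed it with median centring, all probe sets averaged, brighter genes only or no trend (adjusted p = 0.047, 0.049, 0.038 and 0.033): with Epo it stood at 6.79 at 0 h and then at 7.92, 6.64 and 5.36, and without at 4.90 and then 8.36, 7.13 and 5.91. Of 35 immediate early genes, 3 were called higher and 9 lower, against 8.08% and 8.8% of all genes, so that the count above 0 was near the background. Of the 35, 26 were lower beyond the 0 h difference, with a median of -0.40 against 0 over all genes.

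Among genes of ERK feedback, Dusp1, a phosphatase that switches off MAP kinases, stood at 7.79 at 0 h and at 11.38, 10.31 and 9.81 without Epo, against 8.39 and then 8.23, 7.23 and 7.71 with it. No Epo array reached its 0 h level while all the untreated ones exceeded theirs (-2.77 ± 0.21, adjusted p = 0.00022). Phlda1 differed by -1.05 ± 0.27 (adjusted p = 0.027). Of 20 such genes, 2 were called higher and 3 lower, near the 8.08% and 8.8% of all genes. Fosb and Phlda1 were not called without the pair of 2 h (adjusted p = 0.070 and 0.22).

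Among genes of NF-kB feedback, 3 of 13 were called lower with Epo, against 8.8% of all genes. Nfkbia, the inhibitor that holds NF-kB in the cytoplasm and is itself an NF-kB target, stood at 7.67 at 0 h and at 12.74, 12.00 and 10.86 without Epo, against 8.39 and then 10.50, 9.32 and 8.48 with it. Both series were highest at 1 h, and every untreated array was above every treated one. The difference was -2.44 ± 0.12 (adjusted p = 9.3e-05) and, beyond 0 h, -3.15 ± 0.26 (adjusted p = 0.0059). All 4 of its other probe sets were lower with Epo as well. Tnfaip3 (A20), which ends NF-kB signalling by editing ubiquitin, stood at 3.74 at 0 h and at 8.98, 7.40 and 6.25 without Epo, against 3.77 and then 6.33, 4.90 and 4.17 (-2.41 ± 0.17, adjusted p = 0.00022). Its groups overlapped through the decline in both series, not within any hour. None of the 13 was called higher, against 8.08% of all genes, and the list's median was 0.16 at 1 h before it stood at -0.62 and -1.06 at 2 and 3 h. The third gene called lower was Nfkbie (-1.55 ± 0.45, adjusted p = 0.048; -0.64, adjusted p = 0.055, with probe sets that may bind other genes left out). Nfkbie was not called without the pair of 2 h or of 3 h (adjusted p = 0.34 and 0.13). The list's median level without Epo stood 1.97 above 0 h and with Epo 0.91 above it.

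The inducible heat shock genes had unlike starting points in the 2 series. Hspa1a, which encodes an HSP70 chaperone, stood at 8.86 at 0 h in the Epo series and then at 9.19, 4.90 and 4.35, and without Epo at 5.81 and then at 11.25, 8.15 and 7.56. The difference was 3.06 at 0 h and -2.84 ± 0.24 (adjusted p = 0.00034) at 1 to 3 h, which makes -5.90 ± 0.48 (adjusted p = 0.0059) beyond 0 h. Its near-identical copy Hspa1b followed the same course (-2.90 ± 0.37, adjusted p = 0.0014), and probes for either may read both. With the hour left out of the model neither was called at 1 to 3 h (adjusted p = 0.18 and 0.15). Herpud1, of endoplasmic reticulum stress, was also lower (-1.26 ± 0.22, adjusted p = 0.0060), as was the chaperone Hsph1 (-1.16 ± 0.12, adjusted p = 0.00063). Another probe set of Hsph1 already gave -1.09 at 0 h, and -1.69 on average at 1 to 3 h. Of 18 genes of the heat shock and unfolded protein responses, 1 was called higher and 9 lower, against 8.08% and 8.8% of all genes. The medians of this list were -0.09 at 0 h and -0.50 at 1 to 3 h. Without the pair of 2 h, Herpud1 was not called (adjusted p = 0.081), and beyond 0 h Hspa1a, Nfkbia and Jun were not (adjusted p = 0.12, 0.12 and 0.18).

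The largest difference below 0 was that of Txnip, the thioredoxin-interacting protein that restrains glucose uptake. It stood at 7.49 at 0 h and at 10.73, 11.73 and 11.05 without Epo, against 7.58 and then 7.34, 6.53 and 6.59 with it. Its level without Epo was thus far above the start within the first hour and with Epo below it (-4.35 ± 0.28, adjusted p = 0.00015; beyond 0 h -4.44, adjusted p = 0.080). Its second probe set gave -4.63. Txnip stands on the list of FOXO factors and targets, of which 9 of 26 were called lower and 2 higher. The shares of all genes were 8.8% and 8.08%, and the list's median was -0.43 after -0.12 at 0 h. Among the others, Tsc22d3 (Gilz) stood at 6.95, 8.59 and 8.86 without Epo and at 5.47, 4.98 and 4.59 with it (-3.12 ± 0.43, adjusted p = 0.0019). The probe sets of Tsc22d3 disagreed: their average gave -1.38, a second one -2.60, and the brightest of those named with no suffix gave 0.44 (adjusted p = 0.052). Foxo3, the factor itself, stood at 8.49, 9.57 and 10.50 without Epo and at 7.95, 8.05 and 8.81 with it (-1.25 ± 0.22, adjusted p = 0.0053; 0.098 with the hour left out of the model). Bbc3 (Puma), a trigger of mitochondrial apoptosis, stood at 7.29, 8.74 and 8.60 without Epo and at 6.77, 6.51 and 5.99 with it (-1.79 ± 0.34, adjusted p = 0.0080).

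Of 19 genes that slow the cell cycle, 9 were called lower and 2 higher, against 8.8% and 8.08% of all genes, with a median of -0.38 after -0.12 at 0 h. The antiproliferative gene Btg2 stood at 8.98, 10.06 and 9.79 without Epo and at 8.11, 7.40 and 7.30 with it (-2.01 ± 0.30, adjusted p = 0.0030), above the 0 h levels of 7.09 and 6.78 on all 6 arrays. Gadd45g, a growth arrest gene, differed by -1.56 ± 0.28 (adjusted p = 0.0058). Btg1 (-1.30 ± 0.34, adjusted p = 0.032; -0.08 on its unsuffixed probe set) and Cdkn1b, the CDK inhibitor p27 (-1.19 ± 0.34, adjusted p = 0.043), were close at 1 h and apart at 2 and 3 h. Of 15 pro-apoptotic genes, 4 were called lower and 2 higher, against 8.8% and 8.08% of all genes. Among the lower ones was Pmaip1 (Noxa), at 5.52, 4.83 and 3.48 without Epo against 3.05, 2.81 and 2.70 (-1.75 ± 0.27, adjusted p = 0.0032). Without the pair of 2 h, none of Foxo3, Bbc3, Btg2, Gadd45g, Btg1, Cdkn1b and Pmaip1 was called, at adjusted p of 0.092, 0.11, 0.055, 0.064, 0.21, 0.30 and 0.050. Btg1 and Cdkn1b were also lost without that of 3 h (adjusted p = 0.069 and 0.13). Of 13 anti-apoptotic genes, 1 was called higher, Pim1, and 1 lower, near the 8.08% and 8.8% of all genes. Mcl1 differed by -0.42 (adjusted p = 0.12; -0.65 and called without the pair of 1 h, adjusted p = 6e-04; 0.05 with all probe sets averaged) and Bcl2l1, which encodes BCL-XL, by 0.00 ± 0.16 (adjusted p = 1.0), at 7.70, 8.02 and 8.05 with Epo against 7.71, 7.83 and 8.23.

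Of 32 genes of the ATF4 response to amino acid shortage and stress, 17 were called lower with Epo and 1 higher, against 8.8% and 8.08% of all genes, with a median of -0.64 after -0.09 at 0 h. Ddit3 (CHOP), its pro-death factor, stood at 6.39 at 0 h and at 8.71, 10.55 and 11.33 without Epo, against 6.51 and then 7.24, 7.55 and 7.80 (-2.66 ± 0.32, adjusted p = 0.0010). Both series stood above their start at each hour, and the gap widened by the hour. The average of all Ddit3 probe sets gave -1.36. Ppp1r15a (GADD34), which reverses the translation block, stood at 9.52, 9.60 and 9.38 without Epo against 7.93, 7.80 and 8.17 (-1.54 ± 0.16, adjusted p = 0.00059). Ddit4 (REDD1), an inhibitor of mTORC1, was at 5.22 without Epo against 5.31 at 1 h, and then at 8.69 and 8.29 against 5.08 and 5.17 (-2.21 ± 0.57, adjusted p = 0.029). Ddit4 was not called without the pair of 2 h or of 3 h (adjusted p = 0.25 and 0.068).

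Targets of the aryl hydrocarbon receptor (AHR), which senses small aromatic compounds, included 3 genes called lower with Epo. Cyp1a1, its best-known target, climbed in both series: it stood at 2.36 at 0 h and at 5.25, 9.42 and 11.18 without Epo, against 3.04 and then 4.68, 7.55 and 8.97 with it (-1.55 ± 0.28, adjusted p = 0.0063). Its groups overlapped because hours differed more than treatments did, and with the hour left out of the model it was not called (adjusted p = 0.53). The AHR repressor Ahrr (-1.95 ± 0.37, adjusted p = 0.0077; 0.15 with the hour left out of the model) and Tiparp (-1.42 ± 0.28, adjusted p = 0.0088) were lower with Epo as well. So were the metallothioneins Mt1 (-1.0 ± 0.16, adjusted p = 0.0042; 0.14 with probe sets that may bind other genes left out) and Mt2 (-1.15 ± 0.19, adjusted p = 0.0045). Of the 10 genes of the metal response and AHR list, 5 were called lower and 1 higher, against 8.8% and 8.08% of all genes. The higher one, Mtf1 (2.00 ± 0.21, adjusted p = 0.00061; 1.05 at 0 h), gave -0.21 on its unsuffixed probe set (adjusted p = 0.55) and 0.29 with all probe sets averaged (adjusted p = 0.19). Without the pair of 2 h, Cyp1a1, Ahrr, Tiparp, Mt1 and Mt2 were not called (adjusted p = 0.10, 0.098, 0.12, 0.064 and 0.068).

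Of 15 genes of the NRF2 antioxidant response, 6 were called higher and 2 lower, against 8.08% and 8.8% of all genes. Srxn1, which repairs oxidised peroxiredoxins, stood at 5.92 in both series at 0 h, and then at 6.89, 8.07 and 9.15 with Epo against 5.72, 5.52 and 5.59 without. Its level with Epo was higher at each further hour while that without stayed between 5.52 and 5.72 (2.43 ± 0.36, adjusted p = 0.0028). Me1, malic enzyme, was at 5.21 against 5.35 at 1 h, and then at 7.19 and 8.29 with Epo against 5.33 and 5.30 (1.57 ± 0.46, adjusted p = 0.047; 0.13 with the hour left out of the model). Osgin1 (1.01 ± 0.16, adjusted p = 0.0038) and heme oxygenase Hmox1 (0.84 ± 0.20, adjusted p = 0.020) were called too, Osgin1 with 0.93 already at 0 h. The list's median was -0.14, 0.05 and 0.62 at 1, 2 and 3 h. Me1, Osgin1 and Hmox1 were not called without the pair of 2 h (adjusted p = 0.27, 0.065 and 0.19), and Me1 was not without that of 3 h (adjusted p = 0.14).

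**Figure D3:**
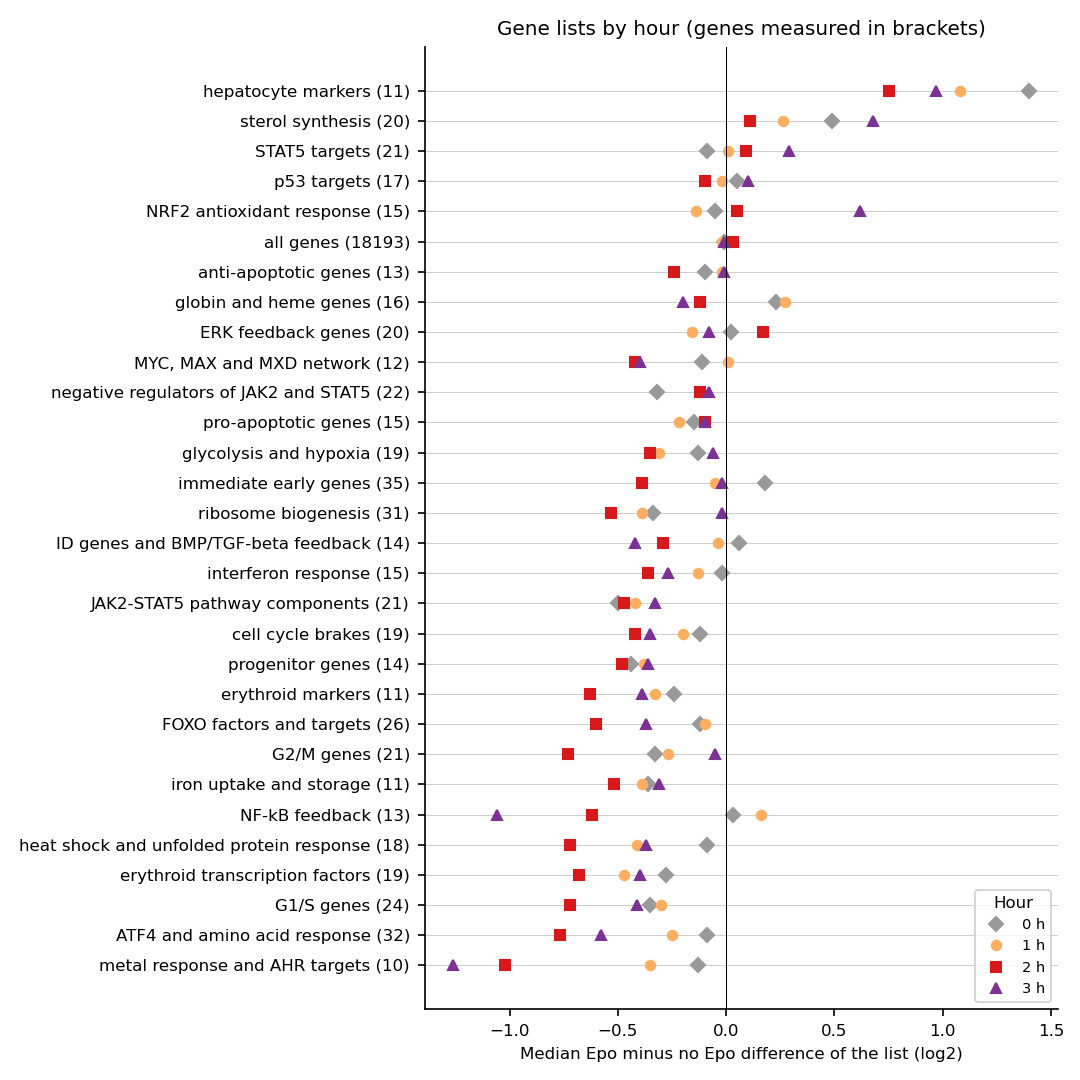
Median Epo minus no Epo difference (x axis, log2) of each gene list at 0, 1, 2 and 3 h, 1 pair of arrays per hour, with the number of genes measured in brackets. The medians of NF-kB feedback, ATF4 and AHR genes are farthest below 0 at 2 or 3 h, that of NRF2 genes reaches 0.62 at 3 h, and hepatocyte markers are highest at 0 h, at 1.4.

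Of 19 erythroid transcription factors 10 were called lower and none higher, against 8.8% and 8.08% of all genes, with a median of -0.51 after -0.28. The summed level of 11 erythroid markers, 6 of them called lower, was 14.01 to 14.48 with Epo and 14.47 to 14.99 without at 1 to 3 h (14.23 against 14.54 at 0 h); its part in these differences was not tested. Klf3, a repressor, stood at 10.18, 11.95 and 11.30 without Epo and at 9.43, 8.93 and 8.61 with it (-2.16 ± 0.35, adjusted p = 0.0041; -1.19 with all probe sets averaged). Gfi1b, a repressor needed for erythroid maturation, stood at 10.25, 11.67 and 11.89 without Epo against 9.51, 9.98 and 10.55 (-1.25 ± 0.17, adjusted p = 0.0016; 0.073 with the hour left out of the model). Ldb1, the bridging protein of the GATA1-TAL1 complex, was lower by a similar size (-1.39 ± 0.18, adjusted p = 0.0016), and Gata1 by less (-0.57 ± 0.12, adjusted p = 0.013). Kit, the stem cell factor receptor, stood at 8.07, 7.79 and 7.75 without Epo and at 6.68, 6.23 and 6.03 with it (-1.55 ± 0.16, adjusted p = 0.00059), but also at 8.39 against 6.99 at 0 h. Of 16 globin and heme genes, 1 was called higher and 3 lower, against 8.08% and 8.8% of all genes. The higher one was the embryonic globin Hbb-bh1 (1.42 ± 0.15, adjusted p = 0.00062, with 1.30 at 0 h). Of 24 G1/S genes 12 were called lower and 2 higher, with a median of -0.51 after -0.35. Of 21 G2/M genes 6 were called lower and none higher. The shares of all genes were 8.8% lower and 8.08% higher. Cdc6, which licenses replication origins, stood at 10.62, 11.04 and 11.70 without Epo against 10.32, 9.61 and 10.05 (-1.13 ± 0.22, adjusted p = 0.0094). Klf3, Gata1 and Cdc6 were not called without the pair of 2 h (adjusted p = 0.062, 0.16 and 0.12).

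Of 20 sterol synthesis genes, 6 were called higher and none lower, against 8.08% and 8.8% of all genes, with a median of 0.24 after 0.49 at 0 h. Idi1, of isoprenoid synthesis, stood at 10.48, 10.70 and 10.87 with Epo against 9.77, 9.85 and 9.79 (0.88 ± 0.12, adjusted p = 0.0018), with 0.81 at 0 h. Of 31 ribosome biogenesis genes, 12 were called lower and 3 higher, against 8.8% and 8.08% of all genes, with a median of -0.27 after -0.34. Several of the largest differences above 0 were also there at 0 h. Fabp2 (3.05 ± 0.18), Cd302 (2.82 ± 0.16), Mgst1 (2.73 ± 0.15), Spink1 (2.54 ± 0.16) and Leap2 (2.45 ± 0.25), each at an adjusted p of 0.00059 or less, were within 0.80 of their 0 h difference. Another probe set of Mgst1, the brightest unsuffixed one, gave 0.05 (adjusted p = 0.84). With all probe sets averaged Cd302 gave 1.53 and Mgst1 1.39. Rpl12, a ribosomal protein gene, was at 6.22 against 5.57 at 0 h, and then at 6.78, 7.12 and 7.27 with Epo against 5.01, 4.17 and 4.55 (2.48 ± 0.23, adjusted p = 0.00044; beyond 0 h 1.83, adjusted p = 0.84). In other lists, 5 of 14 progenitor genes, 6 of 11 iron genes, 3 of 15 interferon response genes and 3 of 17 p53 targets were called lower, against 8.8% of all genes, and of these lists 1 iron gene was called higher.

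The series moved unequally from 0 h, which the matched differences alone do not show. Of the 264 genes at least 2-fold lower, 79 (29.9%) stood at least 2-fold above their 0 h level in the untreated series, against 0.962% of all genes, and 11 (4.17%) stood at least 2-fold below it in the Epo series, against 1.54% of all genes. Of the 419 genes at least 2-fold higher, 17 (4.06%) stood at least 2-fold above 0 h in the Epo series, against 0.319% of all genes, and 27 (6.44%) at least 2-fold below it in the untreated one, against 0.748%. More of the 419, 51 (12.2%), stood at least 2-fold below 0 h in the Epo series itself, against 1.54% of all genes. For 334 of these 419, neither series had moved by 2-fold. These shares describe means of 3 arrays against 1 array at 0 h, with no test. The 264 and 419 genes were picked by their differences in the same values at 1 to 3 h. Selection alone thus favours shifts from 0 h that make up such a difference, and part of their excess over all genes is built in.

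Hour by hour, the count of genes at least 2-fold apart was 460 (2.53%) at 1 h, below the 551 of 0 h, and then 1301 (7.15%) at 2 h and 1188 (6.53%) at 3 h, with 1 array a side and no test. At 1 h, 326 genes were higher and 134 lower; at 2 h 621 and 680, and at 3 h 596 and 592. At all 3 hours 184 genes were at least 2-fold higher, 139 of them (75.5%) also at 0 h. At all 3 hours 52 genes were at least 2-fold lower, 16 of them also at 0 h, with Txnip, Jun, Tsc22d3 and Hspa1b the farthest. Some differences were seen at 1 h alone. Cd69, a surface marker of activation, was -4.09 at 1 h and -0.12 and 0.20 afterwards. It read 6.52 on the untreated array of 1 h and 2.08 to 2.76 on all others of 0 to 3 h. Cd69 thus rests on 1 array and was not called at 1 to 3 h (adjusted p = 0.21). The immediate early gene Ier3 was -1.85 and then -0.39 and -0.02. At 3 h alone, the lipoprotein receptor Lrp8 reached 2.41, the nuclear receptor Ppard 2.02 and the acyl-CoA synthetase Acsl3 1.95, while Fbxo5, an inhibitor of the anaphase-promoting complex, reached -2.07. Other probe sets gave 1.31 and 2.99 for Lrp8 at 3 h, but 0.26 for Ppard and 0.57 and 0.20 for Acsl3. The probe set used for Acsl3 carries an s suffix, which marks probes that may bind other genes.

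**Figure D4:**
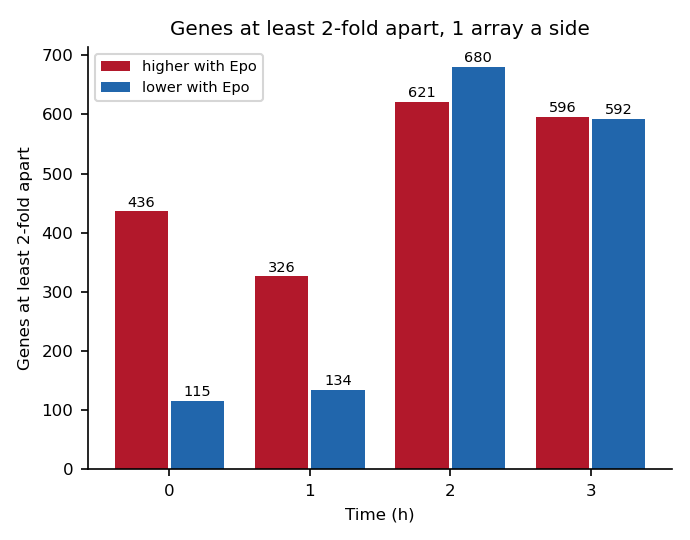
Number of genes (y axis) at least 2-fold higher (red) or lower (blue) with Epo at 0, 1, 2 and 3 h (x axis), 1 array a side, so there are no error bars. The genes lower with Epo number 115 and 134 at 0 and 1 h and 680 and 592 at 2 and 3 h.

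To see which differences belonged to the first hours, the difference at 1 to 3 h was set against that at 5 to 7 h in 1 limma fit over 12 arrays. It was higher early for 1278 genes (7.02%) and lower early for 911 (5.01%). Of the 1278, 411 (32.2%) differed by more than 0 at 1 to 3 h, and of the 911, 504 (55.3%) by less than 0. Genes called higher at 1 to 3 h and also higher early than late numbered 135 (0.742% of all). Those called lower at 1 to 3 h and also lower early than late numbered 153 (0.841%). Nab2 gave 1.22, 3.75 and 2.41 at 1, 2 and 3 h and 0.20, 0.31 and 0.04 at 5, 6 and 7 h, so it was at least 2-fold higher early alone (2.28 ± 0.46, adjusted p = 0.0082). Rrad turned over, from 1.28, 2.05 and 1.34 to -1.82, -1.34 and -1.58 (3.14 ± 0.24, adjusted p = 0.00021). Relb, an NF-kB subunit, went from 2.00, -0.41 and -2.02 to -4.07, -4.18 and -4.93, and Cyp1a1 from -1.55 on average to -4.15. Tnfaip3 (-1.12 ± 0.21, adjusted p = 0.0058), Dusp1 (-1.21 ± 0.25, adjusted p = 0.010) and Nfkbia (-0.70 ± 0.16, adjusted p = 0.015) were farther below 0 early than late. The calls of Dusp1 were lost without the pair of 2, 6 or 7 h (adjusted p = 0.056 to 0.059) and those of Nfkbia without that of 2, 5 or 6 h (adjusted p = 0.071 to 0.093); with the hour left out of the model, Cyp1a1, Tnfaip3, Dusp1 and Nfkbia were not called (adjusted p = 0.39, 0.46, 0.10 and 0.59). Relb was not called with robust eBayes (adjusted p = 0.086). Egr1 (0.77, adjusted p = 0.20; 1.24 and called without the pair of 2 h, adjusted p = 0.020), Socs3 (-0.56, adjusted p = 0.19), Cish (-0.36, adjusted p = 0.42), Pim1 (-0.21, adjusted p = 0.78) and Txnip (-0.03, adjusted p = 0.98) were not called, which does not show that their differences were equal in both windows.

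Other genes gained their difference later. Socs2 averaged 0.65 early and 2.68 late (-2.02 ± 0.31, adjusted p = 0.0024; -0.69 with all probe sets averaged), and Epor -0.43 and -1.36 (0.94 ± 0.12, adjusted p = 0.0015). Csf2rb, the shared chain of the IL-3 and GM-CSF receptors, went from -0.91, -0.93 and 0.77 to 1.88, 2.75 and 3.48. Of 31 ribosome biogenesis genes 23 and of 20 sterol synthesis genes 14 were lower early than late, and none of either list was higher early. The shares of all genes were 5.01% lower early and 7.02% higher early. The medians of these lists were -0.27 and 0.24 early and 0.61 and 1.59 late. Of the 21 G2/M genes 11 were higher early and none lower, against 7.02% and 5.01% of all genes, with medians of -0.44 early and -1.0 late. The counts moved with single pairs: without that of 2 h 765 genes were higher early and 472 lower, without 6 h 408 and 313, without 7 h 691 and 417, without 5 h 713 higher, and without 3 h 1475 lower.

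**Figure D5:**
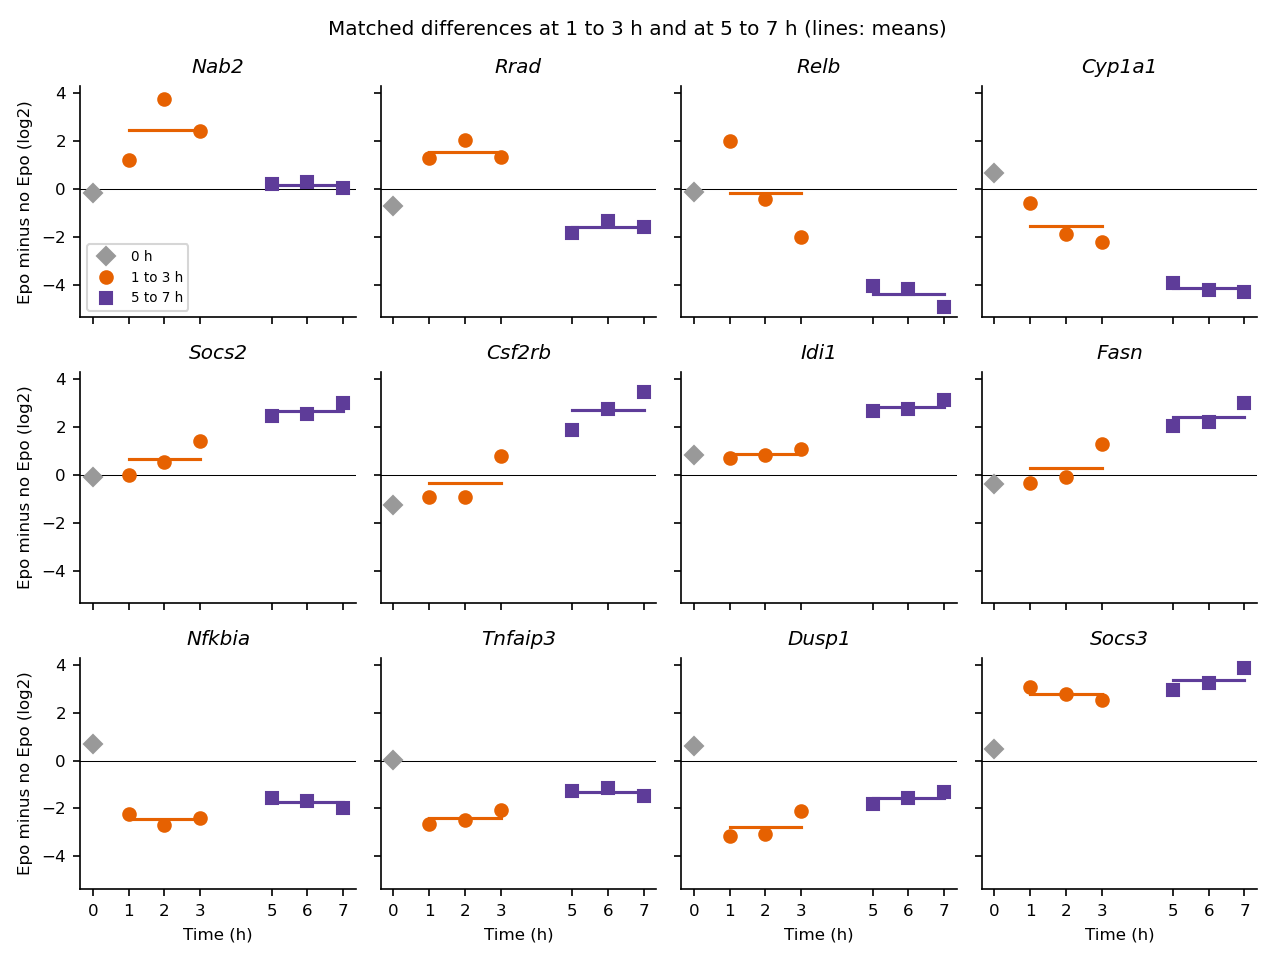
Epo minus no Epo difference (y axis, log2) by time (x axis, hours) for 12 genes, 1 pair of arrays per point; lines are means of 1 to 3 h (orange) and 5 to 7 h (violet), and the grey diamond is 0 h. Nab2 and Rrad are above 1 at 1 to 3 h alone, Socs2, Csf2rb and Fasn reach their height at 5 to 7 h, and Socs3 is above 2 in both windows.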

How the data were processed

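RNA of 20 CFU-E samples was measured on mouse expression arrays, 1 per sample. Values deposited by the authors run from 1.37 to 14.56 and were read as log2 levels; for the summary and scaling of probe intensities the sources used here name no method. There is no read depth, so precision depends on how many arrays there are. Of 45101 probe sets, 34958 named 1 gene in the platform annotation, 932 several and 9211 none here. Where several probe sets named a gene, the one brightest on average over the 20 arrays was kept, which left 18193 genes. No filter on dim genes was used. On this array a probe set name ending in _a_at reads several transcripts of 1 gene, while _s_at and _x_at mark probes that may bind other genes; an unsuffixed probe set has none of these endings.

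Differences were fitted with limma 3.58.1 in R 4.3.3 (lmFit, then eBayes with trend) on 6 arrays (1 to 3 h, hour as a block), 8 arrays (with 0 h as the base) and 12 arrays (against 5 to 7 h). P-values were adjusted by Benjamini-Hochberg across the 18193 genes and called under 0.05. Counts per hour used a log2 difference of at least 1. Summed levels are log2 of summed unlogged values. The members and lists were chosen with earlier results of these data known. Named genes followed a rule: the pathway genes Cish, Socs1, Socs2, Socs3, Pim1, Epor, Jak2, Stat5a and Stat5b, the 10 largest called differences each way at 1 to 3 h and beyond 0 h, the 8 largest against 5 to 7 h, the 4 largest each way at 0 h and by class of hours, and up to 4 members of a list by difference and 3 by difference beyond 0 h. Not all of them are named; clone names and a microRNA precursor were left out. Fos, Fosb, Junb, Id1, Ccnd3, Tfrc, Spry1, Bcl2l1, Mt1 and Mt2 lie outside the rule and were taken in after their values were seen, as were the promoters shown. The fits were tested on simulated data. Plots were drawn with matplotlib 3.10.9 under Python 3.11.15.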

Additional observations from a re-analysis of the deposited data

Results flagged for a closer look

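The difference between the series was not the same at 1 to 3 h as at 5 to 7 h, by the test of the change itself in limma: 1278 genes were higher early and 911 lower early. Of the genes higher early, Relb changed by 4.26, Klhl24 by 3.46, Rrad by 3.14, Btn1a1 by 2.77, Chaserr by 2.64, Cyp1a1 by 2.60, Ndrg1 by 2.52 and Bbs1 by 2.43 on the log2 scale. Rrad was the one of these 8 that was called higher at 1 to 3 h; the others were near or below 0 then and farther below 0 at 5 to 7 h. Of the genes lower early, Csf2rb changed by -3.06, Hspa1b by -2.48, Ccnb1ip1 by -2.42, Podxl by -2.41, Gdf3 by -2.38, Ogt by -2.36, Fasn by -2.15 and Msmo1 by -2.13. On their brightest unsuffixed probe sets, Btn1a1 gave 0.01 and Msmo1 -0.67 (adjusted p = 0.98 and 0.13). With all probe sets averaged, Klhl24 gave 2.15, Btn1a1 1.09, Chaserr 1.35 and Msmo1 -1.40. Hspa1b lost its call without the pair of 2, 6 or 7 h (adjusted p = 0.074 to 0.086), and Ndrg1 without that of 5, 6 or 7 h (adjusted p = 0.055 to 0.062). With robust eBayes, Relb, Klhl24, Btn1a1, Ndrg1 and Hspa1b were not called (adjusted p = 0.086, 0.056, 0.053, 0.13 and 0.17). With the hour left out of the model Cyp1a1 and Hspa1b were not (adjusted p = 0.39 and 0.33), and Ndrg1 was not with all probe sets averaged or with probe sets that may bind other genes left out (adjusted p = 0.069 and 0.059).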

How the results depend on the processing

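The calls at 1 to 3 h rest on 2 residual degrees of freedom. Leaving out 1 pair gave 444 to 1700 genes higher and 191 to 2042 lower at 1 to 3 h, 0 to 66 higher and 0 to 224 lower beyond 0 h, and 408 to 1707 higher and 313 to 1475 lower against 5 to 7 h. With no replicate block, that is without the hour in the model, 1216 genes were called higher and 1214 lower at 1 to 3 h, and 922 and 671 against 5 to 7 h; the fit beyond 0 h needs the hour. Without the pair of 3 h, 9 genes were lower beyond 0 h. Paired arrays share only the hour, and their deviations correlated at 0.20, 0.03 and 0.22 at 1, 2 and 3 h. Quantile normalization gave 6 genes lower beyond 0 h, and the mean of all probe sets 59 genes at least 2-fold lower at 0 h. The other counts of called or 2-fold genes under the alternatives (quantile normalization, median centring, brighter genes, other probe set rules and other variance models) were within 1.5 times those given. On unsuffixed probe sets only, Mtf1 (-0.21) and Tsc22d3 (0.44) turned over, which neither did with only the s and x probe sets left out (chosen after seeing the data), and with all probe sets averaged Ccnd3 (0.03) and Mcl1 (0.05) did. Among values near 0, Bcl2l1 gave 0.01 to 0.13, and against 5 to 7 h Txnip gave 0.01 to 0.40 and Pim1 0.25, where they changed sign; leaving out 1 pair gave -0.51 to 0.40 for Txnip and -0.56 to 0.25 for Pim1 (Bcl2l1 0.09 without the pair of 3 h, Txnip 0.03 after quantile normalization). Of the values of named genes under the alternatives, 1202 kept their direction and side of the threshold, 117 lost the call and 18 gained it. With the hour left out of the model, Tiparp (adjusted p = 0.056), Fosb (0.052), Phlda1 (0.10), Spry1 (0.076), Hmox1 (0.10), Btg1 (0.057), Nfkbie (0.082) and Ddit4 (0.082) were among the calls lost at 1 to 3 h. Robust eBayes lost Me1 (0.23), Btg1 (0.17), Cdkn1b (0.12), Nfkbie (0.28), Ddit4 (0.27), Klf3 (0.073), Ahrr (0.084) and Mt2 (0.051). Without the trend Epor (0.053), Me1 (0.068), Btg1 (0.053), Cdkn1b (0.058) and Nfkbie (0.072) were lost, and with all probe sets averaged Me1 (0.069), Cdkn1b (0.052), Nfkbie (0.071), Ddit4 (0.056) and Spry1 (0.052). Detection calls were not used here, so dim genes were not set apart by signal over background.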
